A study of Mus musculus with 8 samples.

Results

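The genes described here are 8 genes of the Schwann cells that wrap the nerve branches inside skeletal muscle: Mbp, Pmp22, Prx, Mag, Ncmap, Sox10, Egr2 and Ngfr. They were chosen by name, from what they are known to do in peripheral nerve, with earlier results of these data known. They are 8 of the 22880 genes counted in the series. RNA of soleus, a postural muscle of the calf with slow and fast fibres, was sequenced in 4 control mice (Dnm2 +/+) and 4 Dnm2 +/K562E mice. All 8 animals were males on the C57BL/6 background (the J substrain, per the study's methods) and 2 months old. The mutant mice carried, in every cell, a single copy of a point mutation knocked into their own Dnm2 gene, with a LoxP site left in a neighbouring intron, and the controls were age-matched or littermate wild-type mice. Dnm2 encodes dynamin 2, a GTPase that pinches vesicles off membranes, and the same substitution in people goes with a form of Charcot-Marie-Tooth neuropathy. The comparison of genotypes therefore asks whether the transcripts of the nerve's glia in the mutant muscle differ from those of controls.

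Myelinating Schwann cells surround a stretch of axon with compacted membrane, and non-myelinating Schwann cells hold thin axons or cap the neuromuscular junction. Sox10 is the transcription factor that sets Schwann cell identity, and with Egr2 (also called Krox20) it switches on the myelin genes. After nerve injury, myelin genes and Egr2 fall and the neurotrophin receptor Ngfr (p75) rises. Egr2 is also an immediate early gene, one that many cell types switch on within minutes of a stimulus.

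Egr2 was the member that differed most between the genotypes. The letters in front of its transcript starts are shown because its windows alone held a CArG box, among the 6 members with windows. This box is the recognition sequence of serum response factor, which drives many immediate early genes. The table of RefSeq promoter windows used here (250 bases before a transcript start, build GRCm38.p6) holds 16 windows of 6 of the 8 members. It has no window for Mbp and Sox10, which could therefore not be searched. A CArG box was found, on either strand, in 4 of these 16 windows, all of Egr2, and in 1.47% of all 32851 windows of the mouse table. Egr2 has 5 windows, and the 4 with a box hold 2 different boxes, since 3 of them overlap around the same box. In both windows printed here, on the forward strand and 5′ to 3′, the box is in capitals and begins 72 bases before the start.

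Egr2, window at chr10:67537316-67537565: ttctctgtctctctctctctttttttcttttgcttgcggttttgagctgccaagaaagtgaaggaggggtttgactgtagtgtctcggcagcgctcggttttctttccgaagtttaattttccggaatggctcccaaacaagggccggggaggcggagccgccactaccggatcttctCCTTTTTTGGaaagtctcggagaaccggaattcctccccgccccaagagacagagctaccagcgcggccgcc

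Egr2, window at chr10:67537619-67537868: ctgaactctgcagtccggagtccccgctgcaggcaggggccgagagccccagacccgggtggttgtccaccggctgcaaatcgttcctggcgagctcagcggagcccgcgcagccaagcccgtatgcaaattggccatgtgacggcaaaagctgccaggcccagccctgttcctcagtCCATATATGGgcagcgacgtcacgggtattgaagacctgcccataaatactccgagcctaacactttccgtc

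Pmp22 has 4 listed starts, and the count of a gene adds the reads of all its transcripts. The gene is known to use separate promoters in myelinating Schwann cells and in other tissues, and the windows of the first and the last start are shown for this reason, without a statement of which tissue uses which. No letters are in capitals, as no CArG box was found in either window.

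Pmp22, window at chr11:63128732-63128981: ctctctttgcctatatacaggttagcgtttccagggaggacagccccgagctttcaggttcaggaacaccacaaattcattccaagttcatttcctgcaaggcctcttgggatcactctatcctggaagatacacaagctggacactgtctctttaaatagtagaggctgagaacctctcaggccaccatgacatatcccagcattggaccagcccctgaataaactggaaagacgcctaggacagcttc

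Pmp22, window at chr11:63132553-63132802: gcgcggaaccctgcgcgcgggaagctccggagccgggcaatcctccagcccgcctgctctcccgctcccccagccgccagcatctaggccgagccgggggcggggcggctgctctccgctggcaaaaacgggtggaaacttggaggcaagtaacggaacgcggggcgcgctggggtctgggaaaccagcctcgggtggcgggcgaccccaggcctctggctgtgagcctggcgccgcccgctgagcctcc

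The other motifs searched, on both strands, were ACAAAG, a core that Sox proteins bind, and GTGGGTG and GCGNGGGCG, letters of the kind that Egr proteins bind. ACAAAG was found in 2 of the 3 Mag windows, which overlap and hold the same site, and in 16.5% of all windows. GTGGGTG was found in the Prx window and in 1 of the 2 Ncmap windows, and in 7.36% of all windows. GCGNGGGCG was found in no member's window and in 4.7% of all windows. These matches describe letters and are not measurements of binding.

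The total count per mouse ran from 33407430 to 48832814, and no 2 mice of a genotype agreed within sampling noise (the lowest chi-square over its degrees of freedom was 13), so each of the 8 libraries entered as its own replicate. Levels are given as normalized CPM, which are counts divided by the library total times its TMM factor from edgeR. These factors lay between 0.9145 and 0.9594 in controls and between 1.037 and 1.103 in Dnm2 +/K562E mice, so that the scaling moves the genotypes against each other. Dnm2 itself was at 66.3 ± 4.74 and 73.4 ± 2.43 normalized CPM in controls and mutants (SD, n = 4 each; log2 fold change 0.15, edgeR adjusted p = 0.0909), which says nothing of the allele, as a point mutation leaves the transcript in place. Of the 14001 genes that passed the filter on low counts, 12.9% were called higher and 7.85% lower in Dnm2 +/K562E mice, together 20.7%. A call needs both a Benjamini-Hochberg adjusted p under 0.05 in edgeR's quasi-likelihood test and a difference of 0.58 or more on the log2 scale, in either direction. With the adjusted p alone, 22.2% were higher and 21.7% lower, together 43.8%, and in 41.2% of the tested genes the values of the genotypes did not overlap. Some libraries stood apart: control 1 in immediate early genes and control 4 in the fast myosin gene Myh4, at 3134 normalized CPM against 162.8 to 426.4 in the other controls.

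The tissue held transcripts of peripheral glia and almost none of central myelin. The Schwann cell genes Erbb3, S100b and Cdh19 were at 13.8 ± 3.70, 4.06 ± 0.759 and 3.15 ± 0.146 normalized CPM in controls (SD, n = 4). Of 4 oligodendrocyte markers, Ermn had no count in any mouse, and Mog, Mobp and Opalin had at most 4 counts in a mouse. Of 5 genes of melanocytes, another cell type that uses Sox10, Tyr had no count in any mouse, whereas Dct was at 3.08 ± 1.01 normalized CPM (SD, n = 4) in controls, near the level of Cdh19, and 0.934 ± 0.404 in mutants. Soleus is mostly myofibre, and the fast and slow myosin genes Myh2 and Myh7 stood at 9753 ± 610.7 and 6014 ± 262.6 normalized CPM (SD, n = 4) in controls, so Schwann cells gave a small part of the RNA. In such bulk tissue, fewer Schwann cells and less RNA per Schwann cell cannot be told apart, and a member that other cells also express cannot be assigned to the nerve.

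All 8 members passed the filter. Of these 8, 1 was called higher (Egr2) and 0 lower, or 12.5%, beside the 20.7% of all tested genes. With the adjusted p alone, Mbp was added as lower, which makes 2 of 8 members, beside 43.8% of all tested genes. The genotypes did not overlap in these same 2 members, beside 41.2% of all tested genes. The other 6 members did not pass the test, and 3 members had an unadjusted p under 0.05 in edgeR's test (Mbp, Pmp22 and Egr2), as did 51.8% of all tested genes.

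**Figure D1:**
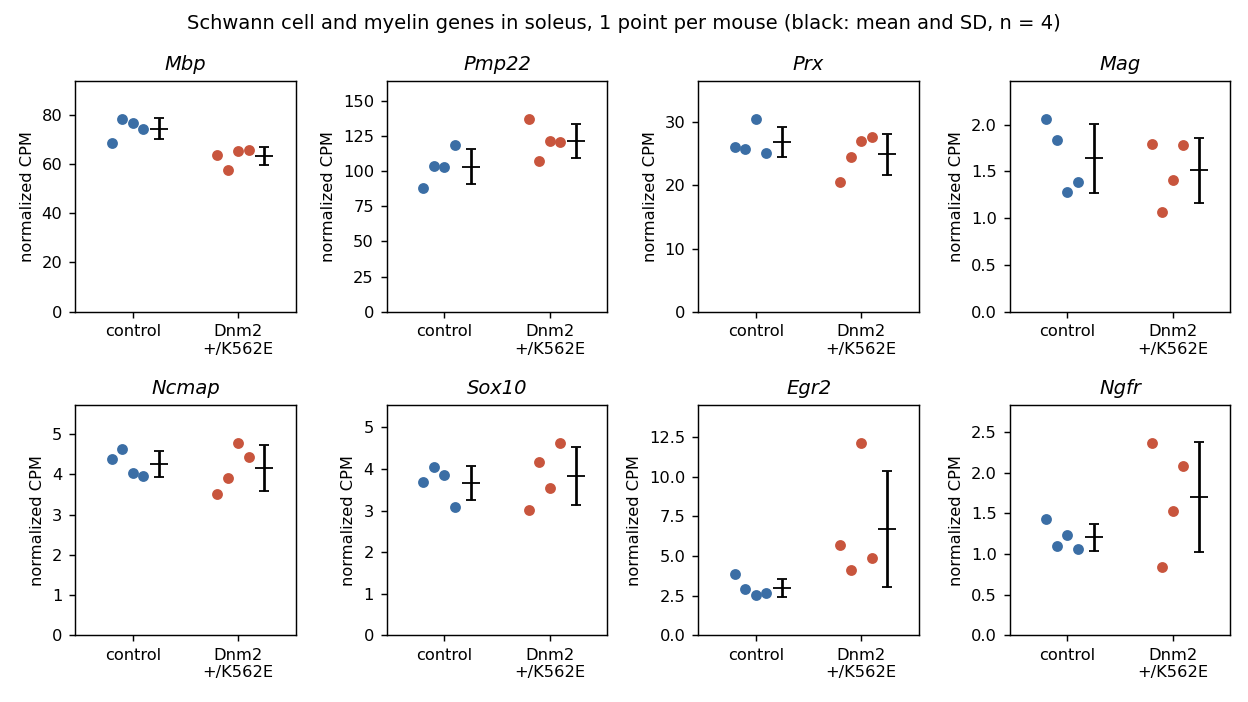
Normalized CPM (counts scaled for depth and TMM factor, y axis from 0 in each panel) of the 8 genes in the soleus of each mouse, with 4 controls in blue and 4 Dnm2 +/K562E mice in orange, each in the order of mouse 1 to 4. Black marks are means with SD. Every mutant lies below every control in Mbp and above every control in Egr2, where mutant 3 reached 12.1, and the groups overlap in the other 6 panels.

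Mbp encodes myelin basic protein, which holds the cytoplasmic faces of the myelin membrane together, and its locus also gives golli transcripts outside myelin. Its level was 68.3, 78.0, 76.6 and 74.0 normalized CPM in controls 1 to 4 and 63.5, 57.7, 65.2 and 65.6 in Dnm2 +/K562E mice 1 to 4. All 4 mutants lay below the lowest control, and the means were 74.2 ± 4.27 and 63.0 ± 3.67 (SD, n = 4 each). The log2 fold change was -0.24 (standard error 0.07, 95% interval -0.38 to -0.09, edgeR adjusted p = 0.0141), which is under the fold threshold of a call. Its size was larger than that of 42.9% of the tested genes. The decrease depended on the scaling, since with library size alone the log2 fold change was -0.026 (edgeR adjusted p = 0.751), and that setting moved the median of all tested genes from 0.0074 to 0.219.

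Pmp22 encodes a membrane protein of compact peripheral myelin that fibroblasts and other cells also make. In controls it was at 87.7, 103.6, 103.1 and 118.3 normalized CPM, and in Dnm2 +/K562E mice at 136.8, 107.0, 121.4 and 121.1. Control 4 lay within the range of the mutants and mutant 2 within that of the controls, while the other 3 mutants were above every control. The means were 103.2 ± 12.5 and 121.6 ± 12.2 (SD, n = 4 each), a log2 fold change of 0.24 (standard error 0.10, 95% interval 0.02 to 0.45, edgeR adjusted p = 0.0699). It therefore did not pass the test over all genes, although Mbp, with a fold change of the same size in the other direction and a smaller standard error, did. Pmp22 passed without control 4 (0.30, edgeR adjusted p = 0.028), without mutant 2 (0.29, adjusted p = 0.0386) and with library size alone (0.45, adjusted p = 0.00509). Fibroblast markers moved in the same direction, and all 5 of the list (Pdgfra, Col1a1, Dcn, Lum and Col3a1) were called higher, with a summed level of 1810 to 2741 normalized CPM in controls and 3886 to 5034 in mutants. Their part in the level of Pmp22 was not tested.

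Prx encodes periaxin, which ties the Schwann cell's outer membrane to the basal lamina through Drp2 and dystroglycan. Controls had 26.1, 25.7, 30.5 and 25.2 normalized CPM and Dnm2 +/K562E mice 20.6, 24.4, 27.1 and 27.7. Mutants 3 and 4 were above 3 of the 4 controls and mutants 1 and 2 below all of them. No difference was detected (log2 fold change -0.11, standard error 0.10, 95% interval -0.33 to 0.12, edgeR adjusted p = 0.424). Its partner Drp2 was at 26.7 ± 2.1 and 29.0 ± 2.63 normalized CPM (SD, n = 4 each), with a log2 fold change of 0.12 (edgeR adjusted p = 0.28).

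Mag encodes an adhesion protein of the membrane that faces the axon, and Ncmap a small protein of non-compact myelin. Mag had only 46 to 69 counts per mouse, at 2.06, 1.84, 1.28 and 1.38 normalized CPM in controls and 1.79, 1.07, 1.41 and 1.78 in mutants. The genotypes overlapped over most of their range, and the log2 fold change of -0.11 came with a 95% interval of -0.67 to 0.44 (edgeR adjusted p = 0.739), wide enough to hold a change of the size used for a call. Ncmap was at 4.38, 4.63, 4.03 and 3.94 normalized CPM in controls and 3.50, 3.90, 4.77 and 4.43 in mutants, again overlapping, with a log2 fold change of -0.03 (95% interval -0.35 to 0.28, edgeR adjusted p = 0.877). The interval of Ncmap holds no change of the size used for a call. The sign of either estimate turned when single mice were left out: for Mag without control 1 (0.0040) or mutant 2 (0.022), and for Ncmap without control 2 (0.0093) or mutant 1 (0.041).

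Sox10, the identity factor, was at 3.69, 4.04, 3.85 and 3.09 normalized CPM in controls and 3.01, 4.16, 3.55 and 4.62 in Dnm2 +/K562E mice. Mutant 1 was the lowest and mutant 4 the highest of all 8 mice, and the others lay between them. The log2 fold change was 0.06 (standard error 0.17, 95% interval -0.31 to 0.44, edgeR adjusted p = 0.782), and it was -0.017 without control 4 and -0.036 without mutant 4.

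Egr2, the zinc finger factor that acts with Sox10 on myelin genes, was at 3.84, 2.91, 2.55 and 2.68 normalized CPM in controls and at 5.73, 4.11, 12.1 and 4.89 in Dnm2 +/K562E mice. Every mutant was above every control, although mutant 2 exceeded control 1 by little, and mutant 3 had 2.47 times the mean of the other mutants. The means were 3.00 ± 0.584 and 6.71 ± 3.66 (SD, n = 4 each), and the log2 fold change was 1.17 (standard error 0.32, 95% interval 0.47 to 1.87, edgeR adjusted p = 0.012). Its size exceeded that of 92.7% of the tested genes. Without mutant 3 it fell to 0.71 (edgeR adjusted p = 0.0173), which still met both thresholds.

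Ngfr, the receptor that Schwann cells raise after losing their axon, was low, with 36 to 87 counts per mouse. It was at 1.43, 1.10, 1.23 and 1.06 normalized CPM in controls and 2.36, 0.840, 1.53 and 2.08 in mutants. Mutants 1, 3 and 4 were above every control and mutant 2 below every control. The log2 fold change of 0.49 did not pass the test (standard error 0.31, 95% interval -0.19 to 1.17, edgeR adjusted p = 0.225). Without mutant 2 it was 0.72 and passed (edgeR adjusted p = 0.0425), and the number of members called was then 2.

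**Figure D2:**
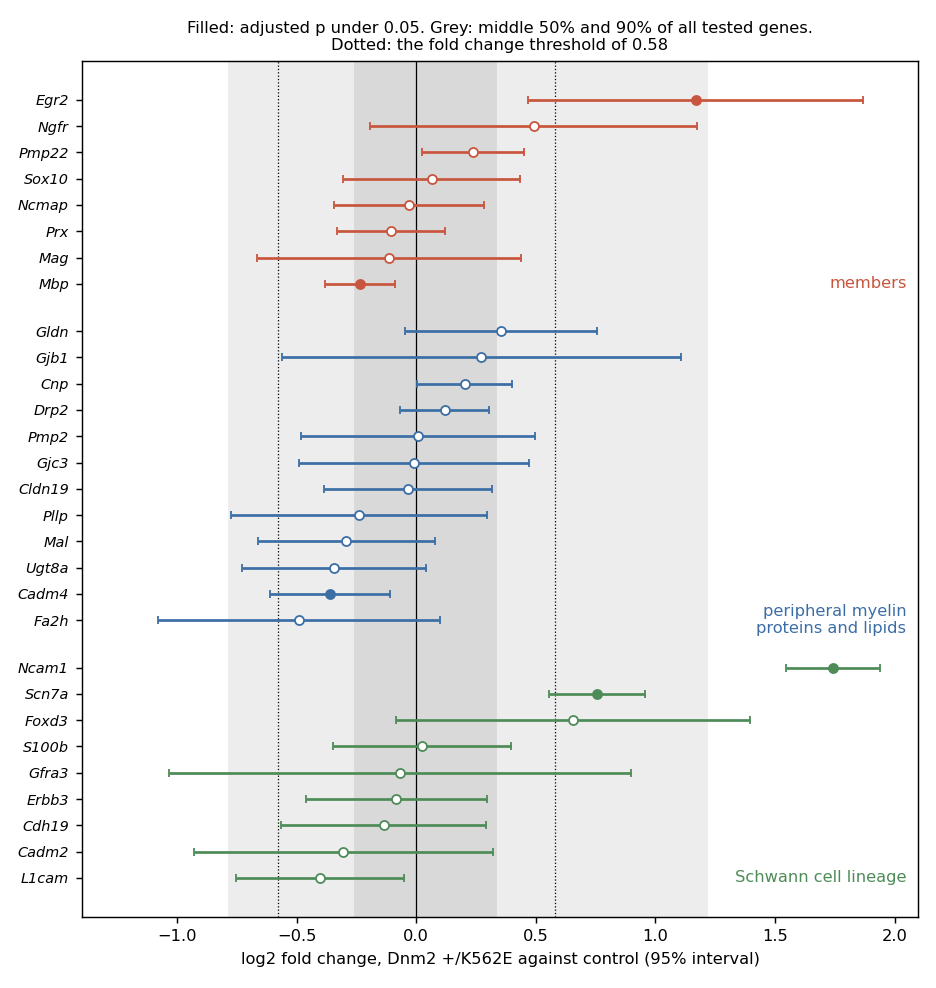
Log2 fold change of Dnm2 +/K562E against control mice with 95% intervals (x axis) for the 8 members, 12 further genes of peripheral myelin and 9 genes of the Schwann cell lineage (y axis). Filled points have an adjusted p under 0.05, dotted lines mark a log2 fold change of 0.58 in either direction, and grey bands hold the tested genes between the quartiles (-0.26 to 0.33, dark) and between the percentiles 5 and 95 (light). Mbp and Cadm4 are filled on the lower side within the dotted lines, while Egr2, Ncam1 and Scn7a are filled beyond the upper dotted line. The open point of Foxd3 also lies beyond it (0.65, edgeR adjusted p = 0.138).

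Compared per kilobase of exon, so that gene length does not enter, the members spanned more than 2 orders of magnitude in controls. Pmp22 led with 43.8 ± 5.30 normalized CPM per kb (SD, n = 4), followed by Mbp with 8.77 ± 0.504, Prx with 4.82 ± 0.434 and Ncmap with 1.91 ± 0.143. Sox10 (1.2 ± 0.134) and Egr2 (0.882 ± 0.172) overlapped in the controls, and so did the lowest pair, Mag (0.403 ± 0.0909) and Ngfr (0.350 ± 0.0485). For the other neighbours in this order, the first exceeded the second in each of the 8 mice. In Dnm2 +/K562E mice, Egr2 was at 1.98 ± 1.08 normalized CPM per kb (SD, n = 4), with Ncmap at 1.86 ± 0.252 and Sox10 at 1.26 ± 0.230, and Ngfr (0.494 ± 0.195) had a higher mean than Mag (0.372 ± 0.0850). Egr2 exceeded both Ncmap and Sox10 in mutants 1 and 3 and lay below both in mutants 2 and 4. These lengths are the union of all annotated exons, which for Mbp includes exons of the golli transcripts.

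**Figure D3:**
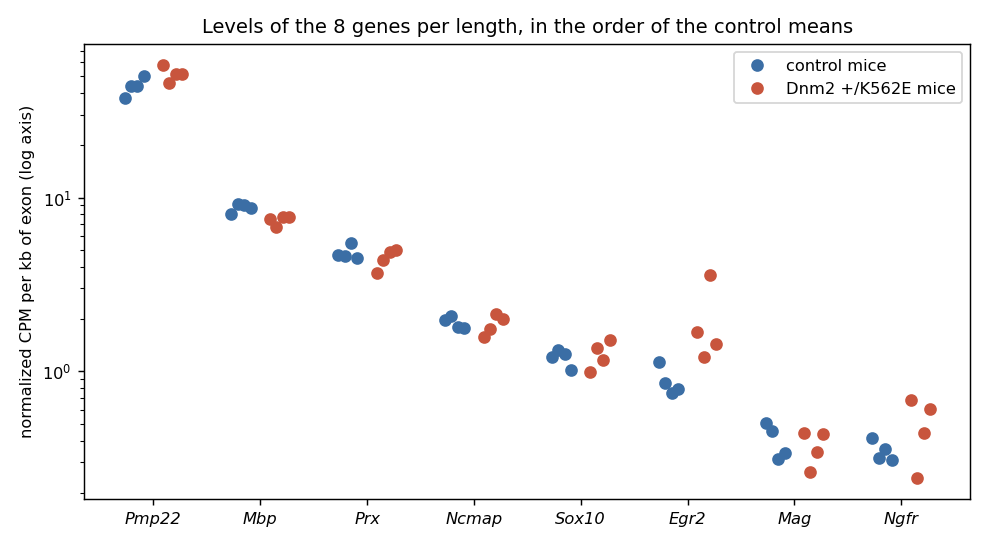
Normalized CPM per kb of exon (y axis, log scale) of the 8 genes in each mouse, ordered by the control mean from 43.8 for Pmp22 to 0.350 for Ngfr, with controls in blue and Dnm2 +/K562E mice in orange. In the mutants, the mean of Egr2 (1.98) is above those of Sox10 and Ncmap, though Egr2 exceeds either in mutants 1 and 3 alone, and Ngfr and Mag change places.

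Dividing each member by Sox10 in the same mouse gives a level per amount of Schwann cell identity transcript that does not depend on the scaling of libraries. The log2 ratio of Egr2 to Sox10, computed from counts with a pseudocount of 0.5, was -0.30 ± 0.29 in controls and 0.69 ± 0.83 in mutants (SD, n = 4 each), a difference of 0.99 (two-sided exact permutation test, p = 0.0571). For Mbp the difference was -0.29 (exact p = 0.2), for Pmp22 0.19 (exact p = 0.543) and for Prx -0.16 (exact p = 0.229). The differences were -0.17 for Mag, -0.092 for Ncmap and 0.35 for Ngfr, with exact p of 0.629, 0.543 and 0.486. None of the 7 ratios passed 0.05 by this exact test before any adjustment, and the smallest p that 4 against 4 mice allow is 0.0286. With Prx in place of Sox10, the ratio of Egr2 reached this smallest p, with a difference of 1.16 (exact p = 0.0286).

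In a list of 12 further genes of peripheral myelin proteins and lipids, 0 were called in either direction by edgeR's quasi-likelihood test, its exact test or DESeq2, 2 had an unadjusted p under 0.05 in the first of these (beside 51.8% of all tested genes), and the median log2 fold change was -0.02 beside 0.0074 over all tested genes. Cadm4, an adhesion protein of the internode, passed the test at a log2 fold change of -0.36 (edgeR adjusted p = 0.024), from 8.39 ± 1.03 to 6.53 ± 0.360 normalized CPM (SD, n = 4 each). It lost the test without control 2 (-0.28, adjusted p = 0.0723), without mutant 2 (-0.32, adjusted p = 0.0646) and with library size alone (-0.15, adjusted p = 0.283). Without control 4, 1 of the 12 genes was called lower. The summed level of these 12 genes was 72.7 to 81.3 normalized CPM in controls and 70.6 to 80.5 in mutants.

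Among 10 genes of the Schwann cell lineage and of non-myelinating Schwann cells, 9 were tested and 2 were called higher, Ncam1 and Scn7a. These are 22.2% of the tested genes of the list, near the 20.7% called over all tested genes. Ncam1, an adhesion molecule of non-myelinating Schwann cells that muscle fibres also make, rose from 18.5 ± 0.735 to 61.8 ± 7.52 normalized CPM (SD, n = 4 each), a log2 fold change of 1.74 (edgeR adjusted p = 5.41e-07). Scn7a, which encodes a sodium channel family member of glia that is also found in muscle, rose by a log2 fold change of 0.76 (edgeR adjusted p = 7.84e-05). S100b, Cdh19 and Erbb3, which mark the lineage as a whole, had log2 fold changes of 0.02, -0.14 and -0.08 with edgeR adjusted p of 0.918, 0.598 and 0.723. Their signs are unsettled: Erbb3 was at 0.11 without control 1, which had the highest Erbb3 level, and at 0.0095 without mutant 1. S100b was at -0.065 without control 1, -0.040 without control 4 and -0.057 without mutant 4, and Cdh19 at 0.0019 without mutant 1. The median of the 9 tested genes was -0.07.

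Of 10 genes known as partners or regulators of Sox10 and Egr2, 9 were tested and 3 were called higher, with a median log2 fold change of 0.45. The called share was 33.3%, beside 20.7% of all tested genes, whose median was 0.0074. Nab2, a corepressor that binds Egr factors and is itself induced by them, was at 14.0, 8.08, 8.11 and 11.1 normalized CPM in controls and 25.4, 28.3, 26.4 and 20.6 in mutants. All 4 mutants were above all controls, and the log2 fold change was 1.29 (standard error 0.17, edgeR adjusted p = 0.000168). Nab2 shares 151 exon bases with Nemp1 (133 to 189 counts per mouse) and 40 with Stat6 (1358 to 2076), both on the other strand. Nfatc4, which acts with Sox10 on the Egr2 enhancer, rose by 0.93 and the helix-loop-helix inhibitor Id2 by 0.70 on the log2 scale (edgeR adjusted p = 0.00119 and 0.00294). Without mutant 2, Id2 was just under the fold threshold (0.577), and without control 4 the number called higher was 5. The repressor Zeb2 rose by 0.45 on the log2 scale and Tead1 fell by 0.45 (edgeR adjusted p = 0.0142 and 0.00847), both under the fold threshold, and Tead1 did not pass with library size alone (-0.24, adjusted p = 0.113). These genes are expressed in many cell types of muscle, and which cells gave their transcripts was not tested.

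**Figure D4:**
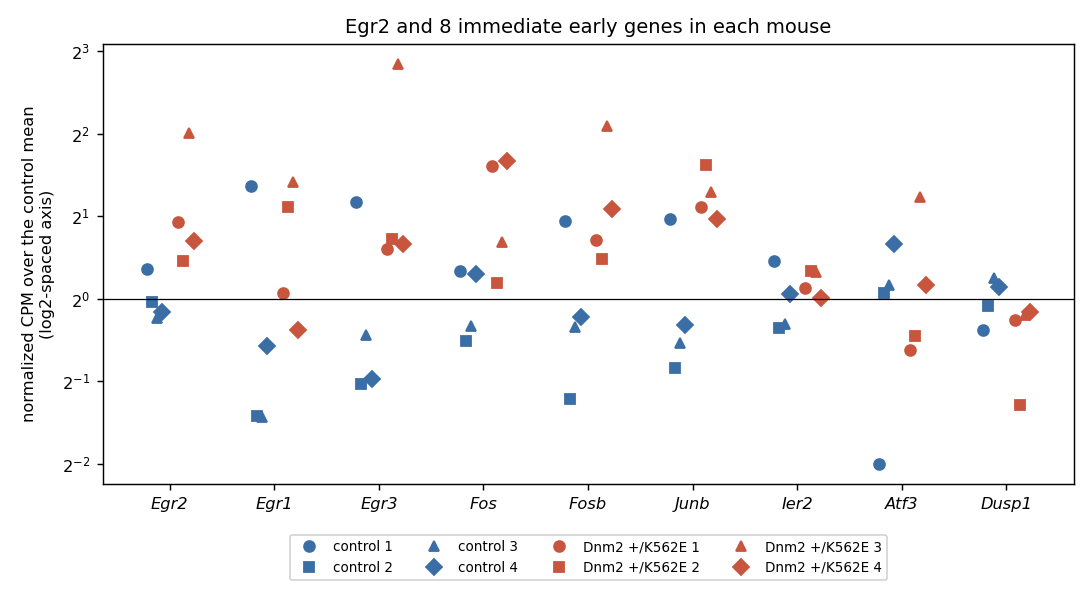
Normalized CPM of Egr2 and 8 immediate early genes in each mouse divided by the gene's control mean (y axis, log2 spacing), with controls in blue, Dnm2 +/K562E mice in orange and a marker shape for each mouse number. Control 1 is the highest control in Egr2, Egr1, Egr3, Fos, Fosb, Junb and Ier2, and mutant 3 is the highest mutant in Egr2, Egr1, Egr3, Fosb and Atf3.

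Because Egr2 belongs to the immediate early genes too, 8 others were read beside it. Of these 8, 2 were called higher, Fos and Junb, or 25% beside 20.7% of all tested genes. The median log2 fold change was 0.95, beside 0.0074 over all tested genes. The exact test of edgeR and library size alone each called 4 and DESeq2 called 3. Fos, a subunit of AP-1, was at 12.3, 6.80, 7.75 and 12.0 normalized CPM in controls and 29.8, 11.1, 15.6 and 31.1 in mutants, with mutant 2 inside the control range and a log2 fold change of 1.17 (edgeR adjusted p = 0.0125). Junb, another AP-1 subunit, rose by 1.28 on the log2 scale without overlap (edgeR adjusted p = 0.00982). It shares 173 exon bases with Prdx2 on the other strand, a gene with 4406 to 6594 counts per mouse beside 238 to 1676 for Junb. The part of these shared bases in the level of Junb was not tested. The rise of Fos and Junb was not shared by the whole list: Ier2 was at 0.21, Atf3 at 0.28 and Dusp1 at -0.41 (edgeR adjusted p = 0.327, 0.673 and 0.159). Fosb was at 1.245 (edgeR adjusted p = 0.0589). Jun, an AP-1 factor placed in the list of repair genes, was called lower, at -0.685 (edgeR adjusted p = 0.000444). Egr1 and Egr3, the relatives of Egr2, overlapped between genotypes. Egr1 was at 78.5, 11.4, 11.2 and 20.5 normalized CPM in controls and 31.9, 65.6, 81.1 and 23.3 in mutants, and control 1 was near the highest mutant (log2 fold change 0.74, edgeR adjusted p = 0.353). Egr3 was at 2.47, 0.535, 0.806 and 0.559 in controls and 1.66, 1.81, 7.87 and 1.73 in mutants (log2 fold change 1.59, edgeR adjusted p = 0.063). Without control 1, both passed, at 1.81 (edgeR adjusted p = 0.00368) for Egr1 and 2.34 (edgeR adjusted p = 0.00902) for Egr3, and 5 of the 8 genes were then called. Without mutant 3, they were at 0.41 (edgeR adjusted p = 0.651) for Egr1 and 0.67 (edgeR adjusted p = 0.318) for Egr3. Mutant 3 had the highest level of any mouse in Egr2, Egr1 and Egr3, and the part of the immediate early response in the level of Egr2 was not tested.

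Genes of repair Schwann cells, the state that follows nerve injury, were mostly near or under the filter: 7 of 11 were tested, 2 were called higher and 1 lower, and the median log2 fold change was 0.32. The called share was 42.9% of the 7, beside 20.7% of all tested genes. Jun, the AP-1 factor that drives the repair state, fell from 127.8 ± 18.5 to 79.5 ± 7.77 normalized CPM (SD, n = 4 each), a log2 fold change of -0.69 (edgeR adjusted p = 0.000444), which was -0.48 and under the fold threshold with library size alone. Sox10 was at only 3.67 ± 0.41 in controls (SD, n = 4), and which cells gave the transcripts of this list was not tested. Gdnf, a growth factor for motor neurons that muscle also makes, was at 0.745, 0.891, 0.134 and 0.53 normalized CPM in controls and 2.91, 1.88, 1.84 and 4.78 in mutants (log2 fold change 2.34, edgeR adjusted p = 0.00263). Runx2 rose by 1.42 on the log2 scale (edgeR adjusted p = 0.00361). Gap43, a growth protein of axons and immature Schwann cells, had a log2 fold change of 0.32 (edgeR adjusted p = 0.426), and Sox2, Shh, Olig1 and Ucn2 were under the filter.

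Genes listed as signals between axon and Schwann cell had transcripts that moved in both directions, and which cells of the muscle gave them was not tested. Of 13 listed genes, 11 were tested, 3 were called higher and 2 lower, and the median was -0.04. The called share was 45.45% of the 11, beside 20.7% of all tested genes. Nrg1, the gene of neuregulin itself, was under the filter, with at most 4 counts in a mouse. Erbb2, which with Erbb3 forms the receptor for axonal neuregulin, rose by 0.96 on the log2 scale (edgeR adjusted p = 0.000272), whereas Erbb3 had the small difference given above. Sort1 and Sorcs2, sorting receptors that can pair with Ngfr, rose by 0.60 and 0.84 on the log2 scale (edgeR adjusted p = 0.0111 and 7.09e-05). Sort1 was under the fold threshold without control 1 (0.52), control 3 (0.49) or mutant 1 (0.57). The neurotrophin genes Ntf3 and Ntf5 had log2 fold changes of -0.92 and -1.19 (edgeR adjusted p = 0.00281 and 0.0017), with Ntf5 at 2.77 to 3.30 normalized CPM in controls and 0.788 to 1.63 in mutants. Lgi4, a secreted Schwann cell signal for myelination, rose by 0.52 on the log2 scale (edgeR adjusted p = 0.00294), and it shares exon bases with Fxyd3 on the other strand, a gene with only 17 to 47 counts per mouse beside 364 to 779 for Lgi4. Of 4 axon cytoskeleton genes, Nefl, Nefm and Nefh had at most 12 counts in a mouse, and Prph, which encodes the intermediate filament peripherin, rose from 2.19 ± 0.395 to 12.0 ± 0.537 normalized CPM (SD, n = 4 each; log2 fold change 2.46, edgeR adjusted p = 6.72e-07).

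Markers of the other cells of nerve and muscle differed in how they moved with genotype. Over all tested genes, 20.7% were called and 43.8% passed the adjusted p alone. Of 9 perineurial and endoneurial genes, 3 were called higher (Msln, Etv1 and Osr2) and 0 lower (1 without control 1), with summed levels of 57.3 to 75.1 normalized CPM in controls and 63.0 to 65.2 in mutants. The median log2 fold change of the list was -0.05. Itgb4 passed the test on the lower side, under the fold threshold (-0.39, edgeR adjusted p = 0.0291), and lost it under 6 alternatives. Sox9, Lypd2 and Slc2a1 were at -0.60, -0.56 and -0.20 without passing (edgeR adjusted p = 0.304, 0.502 and 0.0944). Osr2 lost its call without control 1, 2 or 3 and without mutant 1, 2 or 3, each left out alone (log2 fold change 0.61 to 0.74, edgeR adjusted p = 0.0757 to 0.13). All 5 macrophage markers were called higher, with sums of 63.8 to 116.7 in controls and 136.3 to 231.0 in mutants. Of 5 endothelial markers 1 was called lower (Kdr, not called without mutant 2 at -0.577 or with library size alone at -0.43), with sums of 827.4 to 868.4 and 585.5 to 680.6. With the adjusted p alone, 4 of these 5 were lower. Of 5 mural cell markers 0 were called by edgeR or DESeq2 and 4 had an unadjusted p under 0.05 in edgeR's test, beside 51.8% of all genes, with sums of 1303 to 1448 and 1000 to 1234, and 1 was called higher without control 1, mutant 1 or mutant 4. With the adjusted p alone, 3 mural markers were lower and 1 higher. These markers differed in direction. Rgs5, which made most of the sum (1098 normalized CPM in controls), Kcnj8 and Notch3 had log2 fold changes of -0.35, -0.43 and -0.50. Their edgeR adjusted p were 0.0041, 0.0275 and 0.00013. Cspg4 and Pdgfrb were at 0.56 and 0.16 (edgeR adjusted p = 0.0141 and 0.221). Of 6 myofibre markers 3 were called lower, with sums of 48790 to 55010 in controls and 30780 to 35430 in mutants. All 6 passed the adjusted p on the lower side. Among 5 melanocyte genes only Dct was tested, and it was called lower (log2 fold change -1.71, edgeR adjusted p = 0.00209), with Pmel and Tyrp1 at 8 and 6 counts or fewer in a mouse and Mlana at 1 at most. Of 4 T cell genes only Cd4 was tested, and it was not called (edgeR adjusted p = 0.0861). The part of these shifts in the members' levels was not tested.

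**Figure D5:**
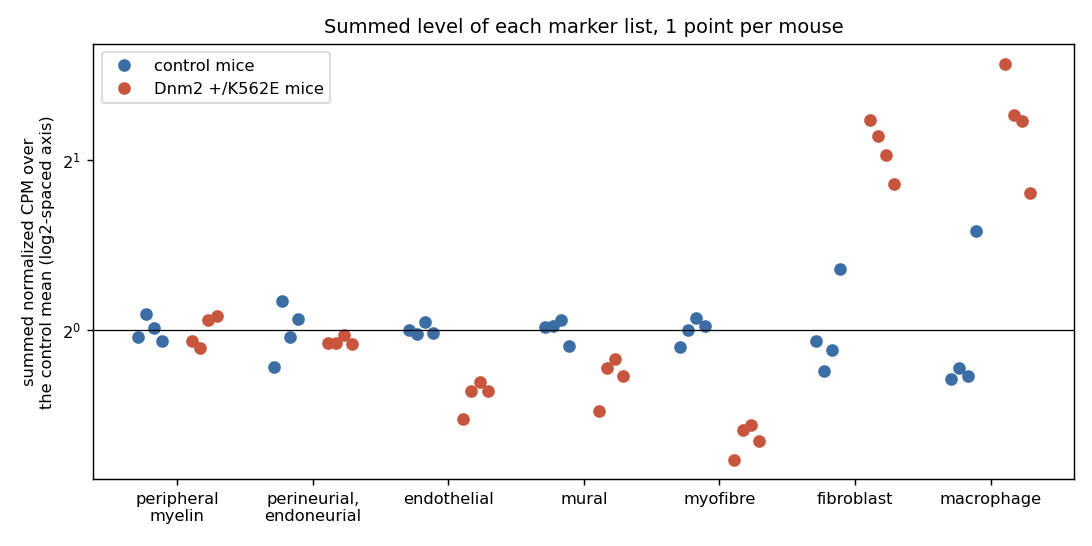
Summed normalized CPM of each marker list in each mouse divided by the mean of the 4 controls (y axis, log2 spacing), with controls in blue and Dnm2 +/K562E mice in orange. Peripheral myelin and perineurial and endoneurial sums overlap between genotypes, endothelial, mural and myofibre sums of the mutants lie below the controls, and fibroblast and macrophage sums lie above them.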

How the data were processed

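The data are RNA-seq counts per gene from the soleus of 8 mice. The authors used Trimmomatic 0.33 for trimming, STAR 2.5.1b for alignment to GRCm38 and featureCounts for counting per Ensembl gene, and deposited whole-number counts without normalization. A read that overlapped more than a single gene was added to each, and the use of strand is not given in the sources used here. The sample labels name a kit for total RNA and the methods poly A enrichment, so that the type of library is not settled. The mice were 4 different animals per genotype.

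Of the 22880 identifiers, 22647 were matched to GENCODE M21, which gave symbols, positions and exon lengths. With edgeR 4.0.16 in R 4.3.3, 14001 genes passed filterByExpr at a minimum count of 10 and a minimum total of 15, and the 2 genotypes were compared after TMM scaling by the quasi-likelihood test without covariates. Benjamini-Hochberg adjustment covered all 14001 genes. Standard errors follow from the F statistic of each gene. Calls needed an adjusted p under 0.05 together with a change of 0.58 or more on the log2 scale. Log2 ratios between genes used counts plus 0.5 and exact two-sided permutation tests in scipy 1.17.1.

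The members and all gene lists were chosen with earlier results of these data known. The genes named are all members, Dnm2, every gene of a list past both thresholds, the gene of each list with the smallest p and up to 3 more, and markers of the other cell types, except that some listed genes are not reported here. Myh4 as the sign of a library that stands apart was chosen after its values were seen. As alternatives, library size alone or median-ratio factors replaced TMM, and the exact test of edgeR or DESeq2 1.42.0 replaced the main test. Others were no filter or at least 10 counts in every mouse, a replicate block, no fold threshold, Prx in place of Sox10, ratios without a pseudocount, and leaving out each mouse. On simulated data with the means and depths of these libraries, run over 13989 genes for this comparison, the fit recovered 79% of genes shifted by 0.8 on the log2 scale and 97% of those shifted by 1.5. In it, 100 genes per size were shifted, up and down in equal number, with all others unchanged. The simulation thus leaves untested how the scaling behaves where, as here, 43.8% of genes pass the adjusted p. Promoter windows are those of RefSeq on GRCm38.p6.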

Additional observations from a re-analysis of the deposited data

Results flagged for a closer look

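In 49 named genes and both genotypes, the highest and lowest of the 4 mice were compared with the others by Dixon's ratio, and 11 of the 98 groups held a mouse far from the other 3, where chance gives about 1 in 20. Among the members, this was Prx in control 3, at 30.5 normalized CPM against 25.2 to 26.1 in the other controls. Dnm2 was low in the same mouse, at 59.2 against 68.5 to 68.8. Control 1 was high in Egr1 (78.5 against 11.2 to 20.5), in Egr3 (2.47 against 0.535 to 0.806) and in Prph (2.77 against 1.94 to 2.08). Mutant 3 was high in Egr3, at 7.87 against 1.66 to 1.81 in the other mutants. Mutant 2 was high in Cnp (16.2 against 14.2 to 14.3) and Id2 (11.1 against 8.12 to 8.57) and low in Cadm4 (6.00 against 6.65 to 6.77). Mutant 4 was low in Zeb2 (46.3 against 58.1 to 59.6) and high in Jun (91.1 against 74.96 to 76.9).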

How the results depend on the processing

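Egr2 stayed called under all 16 alternatives that refit it, with log2 fold changes from 0.71 to 1.38. Scaling by library size alone moved the median of all tested genes from 0.0074 to 0.219 and gave 2865 higher and 564 lower genes in place of 1806 and 1099. With it, Mbp was at -0.026, Pmp22 at 0.45, and the signs turned for Prx (0.10), Mag (0.095), Ncmap (0.18), Cdh19 (0.068), Erbb3 (0.13) and Slc2a1 (0.0074), the last a perineurial glucose transporter at -0.20 otherwise. These shifts are close to that of the median. Without the fold threshold, 3103 genes were higher, 3036 lower and 2 members called. With Prx in place of Sox10, 1 ratio had an exact p under 0.05. Leaving out each mouse in turn gave 1588 to 1970 higher and 1026 to 1208 lower genes, 1 to 2 members called, and log2 fold changes of -0.28 to -0.20 for Mbp, 0.16 to 0.30 for Pmp22, -0.16 to -0.026 for Prx, -0.23 to 0.022 for Mag, -0.11 to 0.041 for Ncmap, -0.036 to 0.16 for Sox10, 0.71 to 1.34 for Egr2 and 0.29 to 0.72 for Ngfr. The same ranges were -0.065 to 0.15 for S100b, -0.29 to 0.0019 for Cdh19 and -0.18 to 0.11 for Erbb3. With 3 against 4 mice the exact test of the ratios cannot reach 0.05. A shared number does not mean a shared animal or litter, and deviations from the genotype mean correlated between same-numbered mice at -0.114 on average by the title numbers and at -0.0302 by the description numbers. A replicate block by title numbers gave 1637 higher and 1036 lower genes and by description numbers 1739 and 1083. Pmp22 passed under the latter block, at 0.24 (edgeR adjusted p = 0.0356), and Mbp and Egr2 passed under both. Cadm4 did not pass under the title block (-0.36, edgeR adjusted p = 0.074) and Osr2 under neither block (0.69 in each, adjusted p = 0.132 and 0.107), which left 2 of the 9 perineurial and endoneurial genes called higher. The causes of these changes were not tested. Mag and Ngfr had at most 87 counts per mouse, and their intervals are wide.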

Other observations

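The deviations of the mice from their genotype means, over log2 CPM of 8 mice and all 14001 tested genes, were used to find the genes whose pattern was most like that of each member, as a description without a test. For Mbp these were Mrpl53, Nedd9 and Plekhs1, for Pmp22 Gas2l1, Sec24d and Nhlrc2, for Prx Fdx1, Gtf3a and Mrps24, and for Mag Cdkl3, Thoc6 and Crtc1. For Ncmap they were Otud7b, Smim20 and Gstm7, for Sox10 Slc25a33, Cisd3 and Ank, for Egr2 Cd59a, Vill and Mat2a, and for Ngfr Mitd1, Tmem183a and Ccn2. No member was among the 3 nearest genes of another member.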
